A study of Saccharomyces cerevisiae with 15 samples.

Results

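The genes described here encode 9 chaperones of the yeast mitochondrion and the partners that work with them, and they were chosen by gene symbol: SSC1, ECM10, SSQ1, MDJ1, MGE1, ZIM17, HSP60, HSP10 and HSP78. All 9 were on the array, each as 2 spots, which makes 18 of 11138 spots with a gene symbol and 9 of 5539 genes. Wild-type Saccharomyces cerevisiae, the budding yeast, was given arsenite, As(III), a toxic arsenic compound, at 1.0 mM. Treated cells after 15 min (3 arrays), 30 min (3 arrays), 1 h (6 arrays) and 18 h (3 arrays) were each compared with untreated wild-type cells, whose RNA was on the same 2-colour slide in the other dye. No mutation or other treatment is named in the labels, and they do not state whether replicates were separate cultures. The p-values therefore cover the variation among these arrays, which may be technical. The labels do not say when the untreated cells were harvested.

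Most mitochondrial proteins are made in the cytosol and enter the organelle unfolded. In the matrix, Ssc1, an Hsp70, pulls them in and helps them fold, with Mdj1 as its J-domain partner, Mge1 as its nucleotide exchange factor and Zim17 keeping it soluble. Hsp60 forms a barrel in which proteins fold, with Hsp10 as its lid, and Hsp78, a ClpB-type ATPase, works with Ssc1 to dissolve aggregates. Ecm10 is a close paralog of Ssc1, and Ssq1 is a specialised Hsp70 that serves the assembly of iron-sulfur clusters.

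Values are given as log2 of treated over untreated signal, with 0 set at the median gene of the array, and this direction is likely rather than stated. Before centring, the median gene stood on average at 0.24 (15 min), -0.34 (30 min), -0.55 (1 h) and 0.46 (18 h). Single arrays ran from -1.17 to 2.23 at 15 min and from -0.51 to -0.10 at 30 min. They ran from -1.35 to 0.22 at 1 h and from -0.19 to 1.02 at 18 h. At 1 h the arrays with treated RNA in Cy5 stood at -1.22, -1.35 and -0.69, and those in Cy3 at -0.28, 0.22 and 0.02. On 15 min replicate 1, which stood at 2.23, the first and second spots of genes correlated with r of 0.65. Each array was centred, so a shift shared by most transcripts could not be seen. Arrays correlated across genes with r of 0.72 to 0.89 at 1 h, 0.45 to 0.73 at 18 h, 0.41 to 0.93 at 30 min and -0.06 to 0.23 at 15 min (genes are not independent replicates). The values at 15 min were thus the least alike between arrays. A gene was called higher or lower at a limma adjusted p under 0.05 (Benjamini-Hochberg over 5539 genes, two-sided). The fit took a dye effect from the 1 h arrays, of which 3 had treated RNA in Cy3 and 3 in Cy5, and errors of fitted values are standard errors. The deposited values of those 3 Cy5 arrays were log2 ratios of whole numbers at all spots, and those of the 3 Cy3 arrays were not. The dye effect therefore cannot be told apart from that difference in the deposited values. At 15 min, 30 min and 18 h all treated RNA was in Cy5, so a fitted value there can differ from the mean of its 3 arrays.

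After 1 h in arsenite, 6 of the 9 genes rose: HSP78 by 3.73-fold, MDJ1 by 3.32-fold, HSP10 by 2.48-fold, HSP60 by 2.41-fold, SSC1 by 2.32-fold and ECM10 by 1.92-fold. SSQ1, ZIM17 and MGE1 did not pass the test. Of all genes tested, 17.1% were called higher at 1 h and 22.6% lower. The median log2 ratio was 1.21 over the 9 genes and 0.02 over all genes. At 15 min and at 30 min HSP10 alone was called, and at 18 h HSP78 alone. The share of all genes called higher was 0.668% at 15 min, 3.27% at 30 min and 5.33% at 18 h. None of the 9 genes was called lower at any time, where 0.0181% of all genes were lower at 15 min, 4.48% at 30 min and 3.16% at 18 h.

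**Figure D1:**
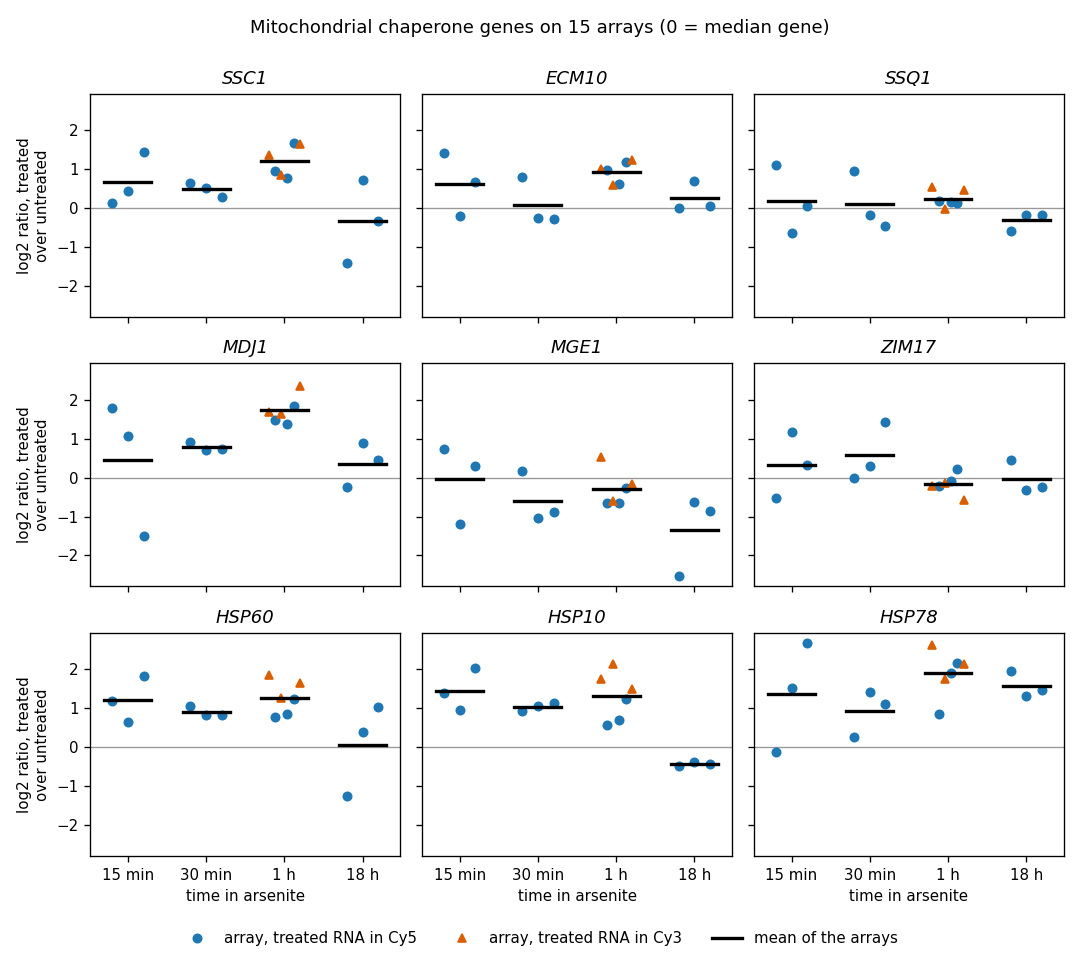
Log2 ratio of treated over untreated cells (vertical axis, 0 is the median gene of the array) for each of the 9 genes on the 15 arrays, by time in arsenite. Each point is 1 array, circles with treated RNA in Cy5 and triangles with treated RNA in Cy3, and the bar is the mean. At 1 h all 6 points lie above 0 for SSC1, ECM10, MDJ1, HSP60, HSP10 and HSP78. At 18 h the 3 points of HSP10 lie between -0.50 and -0.38.

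SSC1 (YJR045C), the main Hsp70 of the matrix, stood at 1.37, 0.95, 0.86, 0.78, 1.67 and 1.64 on 1 h replicates 1 to 6. All 6 arrays were above the median gene, and the fitted value was 1.21 ± 0.24 (limma adjusted p = 0.000725). It was positive on the earlier arrays too, at 0.13, 0.45 and 1.45 at 15 min and at 0.65, 0.52 and 0.28 at 30 min, but neither fitted value passed (0.75 ± 0.41 and 0.56 ± 0.41). At 18 h the arrays fell on both sides of the median gene, at -1.41, 0.72 and -0.33. The 2 spots of SSC1 on the last of these arrays read 0.86 and -1.52, so the mean there rests on spots that disagreed.

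ECM10 (YEL030W), the paralog of SSC1, stood at 1.01, 0.98, 0.59, 0.63, 1.19 and 1.23 on the 1 h arrays. It was above the median gene on each of the 6, with a fitted value of 0.94 ± 0.21 (limma adjusted p = 0.00172). The 30 min arrays read 0.80, -0.25 and -0.29, and the 18 h arrays 0.00, 0.69 and 0.07, with fitted values of 0.10 ± 0.36 and 0.26 ± 0.36 that did not pass. At 15 min, ECM10 read 1.41, -0.21 and 0.66 (0.63 ± 0.36, not called). Because a probe may also bind a closely similar sequence, it is uncertain how far the values of SSC1 and ECM10 belong to each copy. On 18 h replicate 3 the spots of ECM10 read 1.09 and -0.96, a disagreement on the same array as that of SSC1.

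SSQ1 (YLR369W), the Hsp70 of iron-sulfur cluster assembly, stayed close to the median gene at 1 h, at 0.53, 0.17, -0.02, 0.15, 0.13 and 0.47. The fitted value was 0.24 ± 0.21 (limma adjusted p = 0.403), with a 95% interval of -0.21 to 0.69. At 15 min and 30 min replicate 1 was high (1.10 and 0.97) and the other arrays read -0.65 and 0.06, and -0.17 and -0.46. All 3 arrays at 18 h were below the median gene, at -0.59, -0.19 and -0.17, without a call (-0.22 ± 0.37). The gene's spots were dim, brighter than those of 5.42% of genes.

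Within arrays, the Hsp70 genes separated at 1 h. SSQ1 lay below SSC1 on all 6 arrays, by 0.97 ± 0.33 log2 units on average (SD, n = 6; exact sign-flip permutation test, two-sided, p = 0.0312, the smallest that 6 arrays allow, adjusted p = 0.0469 over the 9 pairs compared). ECM10 lay above SSQ1 on all 6, by 0.70 ± 0.22 (SD; exact sign-flip permutation test, p = 0.0312, adjusted p = 0.0469). Between ECM10 and SSC1 the difference was -0.27 ± 0.19, below 0 on 5 of 6 arrays, and did not pass (exact sign-flip permutation test, p = 0.0625, adjusted p = 0.0703). With the trend of ratio on spot brightness removed, SSQ1 lay 1.96 and ECM10 0.81 below SSC1 and ECM10 1.15 above SSQ1, and all 3 differences passed (exact sign-flip permutation test, adjusted p = 0.0469). By the first spot of each gene none of the 3 passed (exact sign-flip permutation test, adjusted p = 0.0562 for both pairs with SSQ1 and 0.0938 for ECM10 and SSC1). Their values were nearly the same, at -0.95 for SSQ1 minus SSC1, 0.67 for ECM10 minus SSQ1 and -0.28 for ECM10 minus SSC1. The adjusted p moves with how many of the 9 pairs reach the smallest p, and by the first spots HSP78 minus HSP60 no longer did. Over all 15 arrays, SSQ1 lay below SSC1 on 11, ECM10 below SSC1 on 10, and ECM10 above SSQ1 on 13.

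MDJ1 (YFL016C), the J-domain protein that stimulates Ssc1, stood at 1.70, 1.48, 1.64, 1.38, 1.84 and 2.35 at 1 h. Every one of these arrays was above 1, and the fitted value was 1.73 ± 0.30 (limma adjusted p = 0.00024). At 30 min it read 0.90, 0.72 and 0.74, the 3 arrays close to each other, yet the fitted value of 0.95 ± 0.52 did not pass. The 15 min arrays were the least alike of any member, at 1.80, 1.07 and -1.50. Both spots of 15 min replicate 3 were low (-1.19 and -1.81), and HSP10, HSP60, HSP78 and SSC1 were at their highest 15 min value on that same array. At 18 h MDJ1 read -0.25, 0.89 and 0.44 (0.53 ± 0.52, not called).

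MGE1 (YOR232W), which swaps ADP for ATP on Ssc1, did not rise. The 1 h arrays read 0.53, -0.66, -0.61, -0.64, -0.28 and -0.17, with 1 of 6 above the median gene and a fitted value of -0.31 ± 0.28 (limma adjusted p = 0.408, 95% interval -0.89 to 0.28). At 18 h all 3 arrays were below it, at -2.53, -0.64 and -0.86. The fitted value of -1.12 ± 0.48 did not pass (limma adjusted p = 0.173), but the fit without a dye term gave -1.34 and a call (limma adjusted p = 0.0255, with 8.36% of all genes lower in that fit). At 15 min MGE1 read 0.75, -1.18 and 0.31 (0.18 ± 0.48), and at 30 min 0.17, -1.05 and -0.90 (-0.37 ± 0.48).

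ZIM17 (YNL310C), the zinc finger protein that prevents aggregation of Ssc1, stood at -0.23, -0.22, -0.14, -0.09, 0.22 and -0.57 at 1 h. One of 6 arrays was above the median gene, and the fitted value was -0.17 ± 0.22 (limma adjusted p = 0.556, 95% interval -0.63 to 0.29). The earlier arrays were scattered, at -0.53, 1.16 and 0.33 at 15 min (0.18 ± 0.37) and at -0.01, 0.29 and 1.42 at 30 min (0.43 ± 0.37). At 18 h they read 0.44, -0.31 and -0.24 (-0.18 ± 0.37), and no value of ZIM17 passed.

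The partners of Ssc1 thus differed from SSC1 in both directions at 1 h. MDJ1 lay above SSC1 on all 6 arrays, by 0.52 ± 0.24 (SD, n = 6), while MGE1 lay 1.52 ± 0.39 and ZIM17 1.39 ± 0.49 below it, also on all 6. Each difference passed (exact sign-flip permutation test, p = 0.0312, adjusted p = 0.0469). By the first spot of each gene none of these 3 passed, at nearly the same values (exact sign-flip permutation test, adjusted p = 0.0562). With the brightness trend removed, MDJ1 lay 0.37 above SSC1, MGE1 1.97 below it and ZIM17 2.19 below it. All 3 then passed (exact sign-flip permutation test, adjusted p = 0.0469). Over all 15 arrays, MDJ1 was above SSC1 on 14, MGE1 below it on 14, and ZIM17 below it on 11.

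**Figure D2:**
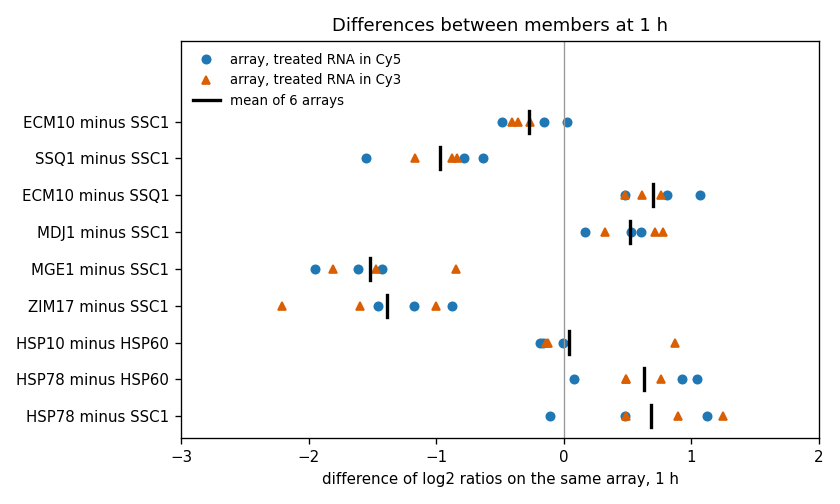
Differences of log2 ratios between 2 members on the same array (horizontal axis) for the 9 pairs compared at 1 h. Points are the 6 arrays, circles with treated RNA in Cy5 and triangles in Cy3, and bars are means. MGE1, ZIM17 and SSQ1 lie left of 0 against SSC1 on all 6 arrays, and 1 array of HSP10 minus HSP60, replicate 3, stands at 0.87 apart from the other 5.

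HSP60 (YLR259C), the chaperonin, stood at 1.86, 0.76, 1.27, 0.86, 1.23 and 1.64 at 1 h. It was above the median gene on every array, with a fitted value of 1.27 ± 0.23 (limma adjusted p = 0.000406). It read 1.19, 0.64 and 1.82 at 15 min and 1.06, 0.82 and 0.82 at 30 min. These 6 earlier arrays were all positive, and the fitted values of 1.53 ± 0.40 and 1.22 ± 0.40 missed the threshold (limma adjusted p = 0.116 and 0.0747). At 18 h the arrays ran from below to above the median gene, at -1.26, 0.40 and 1.02 (0.37 ± 0.40, not called).

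HSP10 (YOR020C), the lid of the chaperonin, was called at 15 min, 30 min and 1 h, and the earlier calls depended on the fit. It stood at 1.39, 0.94 and 2.02 at 15 min (1.93 ± 0.27, 3.81-fold, limma adjusted p = 0.00308), where it ranked 29th highest of 5539 genes in the fit with the dye term. Without that term the 15 min value was 1.45 (limma adjusted p = 0.0121, with 0.921% of all genes higher in that fit). At 30 min it read 0.93, 1.07 and 1.12 (1.52 ± 0.27, 2.86-fold, limma adjusted p = 0.00577). The fitted value, which allows for the dye effect of HSP10, lay above all 3 of these arrays, and it stood at 1.04 without the dye term (limma adjusted p = 0.0156, with 4.98% of all genes higher in that fit). The 15 min call was lost with arrays scaled to equal spread, with the 15 min arrays alone and with a replicate block (limma adjusted p = 0.0544, 0.199 and 0.139). The 30 min call was lost in the same settings (limma adjusted p = 0.0913, 0.0788 and 0.0547), as deposited (0.358) and without 30 min replicate 3 (0.0558). At 1 h HSP10 read 1.73, 0.57, 2.14, 0.69, 1.22 and 1.50 (1.31 ± 0.16, limma adjusted p = 7.06e-06). At 18 h its arrays lay close together below the median gene, at -0.50, -0.38 and -0.43.

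The direction of HSP10 at 18 h depended on the dye term: the fitted value was 0.05 ± 0.27 with it and -0.43 without it, neither called. At 1 h the arrays with treated RNA in Cy3 averaged 1.79 ± 0.32 and those with treated RNA in Cy5 0.83 ± 0.35 (SD, n = 3 each). HSP60 showed the same order, with 1.59 ± 0.30 in Cy3 and 0.95 ± 0.25 in Cy5. Every other member but ZIM17 also averaged higher in Cy3. The dye effect itself did not pass for HSP10 or HSP60 (limma adjusted p = 0.928 and 0.953), and 0 of 5539 genes passed for it. At 1 h dye went together with the form of the deposited values, so their effects cannot be told apart. All arrays at 18 h had treated RNA in Cy5, so among arrays of that orientation HSP10 ran from 0.57 to 1.22 at 1 h and from -0.50 to -0.38 at 18 h. As a test over all arrays, 18 h minus 1 h gave -1.26 ± 0.31 for HSP10 (limma adjusted p = 0.0608), and -1.74 without the dye term (limma adjusted p = 0.00592). As deposited, without centring, that difference stood at 0.28.

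HSP10 and HSP60 had values near each other on most arrays up to 1 h. On 1 h replicates 1 to 6 HSP10 minus HSP60 came to -0.12, -0.19, 0.87, -0.17, -0.01 and -0.14, so the mean difference was 0.04 ± 0.41 (SD, n = 6; exact sign-flip permutation test, p = 1, adjusted p = 1). At 15 min the differences were 0.20, 0.31 and 0.20, and at 30 min -0.14, 0.25 and 0.30. At 18 h they parted in both directions, at 0.76, -0.78 and -1.45.

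HSP78 (YDR258C), the disaggregase of the matrix, had the highest value of the 9 genes at 1 h, at 2.62, 0.84, 1.75, 1.90, 2.15 and 2.12. The fitted value was 1.90 ± 0.28 (limma adjusted p = 6.42e-05). Replicate 2 was the lowest array, and its 2 spots read -0.37 and 2.05, so the spots there disagreed. HSP78 lay above HSP60 on all 6 arrays, by 0.63 ± 0.35 (SD, n = 6; exact sign-flip permutation test, p = 0.0312, adjusted p = 0.0469). That call was lost by the first spots (0.41, exact sign-flip permutation test, adjusted p = 0.281) and with the brightness trend removed (0.65, adjusted p = 0.0703). Against SSC1 it was higher on 5 of 6, by 0.69 ± 0.50, which did not pass (exact sign-flip permutation test, p = 0.0625, adjusted p = 0.0703). By the second spots that difference was 0.88 and passed (exact sign-flip permutation test, adjusted p = 0.0402).

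HSP78 was the 1 member still called at 18 h. Its arrays read 1.94, 1.30 and 1.47 there, the highest of the 9 genes on each of the 3, with a fitted value of 1.84 ± 0.49 (3.57-fold, limma adjusted p = 0.0317). The difference between 18 h and 1 h was -0.06 ± 0.57. The call rested on every one of these arrays: leaving out 18 h replicate 1, 2 or 3 gave limma adjusted p = 0.119, 0.0701 and 0.0857, and leaving out 1 h replicate 1, 2 or 6 also ended it (limma adjusted p = 0.0571, 0.0722 and 0.0639), with fitted values of 1.64 to 1.97 in these 6 fits. Earlier, HSP78 read -0.13, 1.53 and 2.67 at 15 min and 0.26, 1.41 and 1.11 at 30 min (1.62 ± 0.49 and 1.19 ± 0.49, not called). The first array was the lowest at both times. Without 15 min replicate 1 the 15 min value was 2.36 and passed (limma adjusted p = 0.0226).

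**Figure D3:**
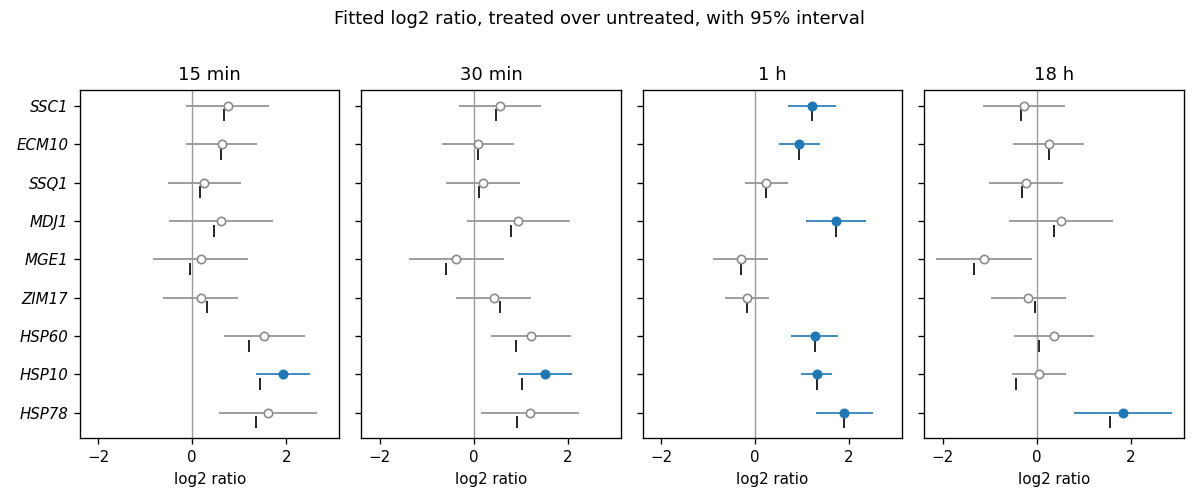
Fitted log2 ratio of treated over untreated cells (horizontal axis) with its 95% interval for the 9 genes at 4 times. Filled blue points passed an adjusted p under 0.05, open grey points did not, and the small black ticks below are the values without the dye term. At 1 h 6 points are filled, against HSP10 at 15 min and at 30 min and HSP78 at 18 h.

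In order of their mean at 1 h, the genes ran HSP78, MDJ1, HSP10, HSP60, SSC1, ECM10, SSQ1, ZIM17 and MGE1. The widest step between neighbours was that from ECM10 to SSQ1 (0.70 ± 0.22, SD), and it held on all 6 arrays. The steps from HSP78 to MDJ1 (0.17 ± 0.55), HSP10 to HSP60 (0.04 ± 0.41), HSP60 to SSC1 (0.06 ± 0.35) and ZIM17 to MGE1 (0.13 ± 0.56) were smaller than their own spread over arrays. So were those from MDJ1 to HSP10 (0.42 ± 0.56) and SSQ1 to ZIM17 (0.41 ± 0.42). HSP78 was the highest member on 3 of the 6 arrays at 1 h, MDJ1 on 2 and HSP10 on 1.

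The count at 1 h depended on the centring of the arrays. As deposited, all 6 genes were still higher, from 0.39 (ECM10) to 1.35 (HSP78), but only HSP78 and MDJ1 were called, in a fit that called 2.89% of all genes higher. Between times, none of the 9 genes was called in 30 min minus 15 min or in 1 h minus 30 min, where the background was 0% for both. None was called in 18 h minus 1 h either, where 1.41% of all genes were. The nearest were HSP10, given above, and SSC1 (-1.48 ± 0.48, limma adjusted p = 0.151), which stood at -1.55 and was called without the dye term (limma adjusted p = 0.0338, with 2.06% of genes lower).

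Spot brightness moved with the ratios on several arrays. The mean log2 ratio of the brightest eighth of genes minus that of the dimmest ranged from -1.88 to 0.57 over the 15 arrays. It was below -1 on 30 min replicates 2 (-1.86) and 3 (-1.88), 1 h replicates 3 to 6 (-1.35, -1.62, -1.205 and -1.25), 15 min replicate 2 (-1.57) and 18 h replicate 1 (-1.53). HSP60, SSC1, HSP78, HSP10 and MDJ1 were bright, above 98.8%, 98.2%, 97.4%, 95.6% and 93.2% of genes. With the trend taken out of each array, the fitted values at 30 min were 2.25 for HSP10, 2.04 for HSP60, 2.01 for HSP78 and 1.39 for SSC1. These 4 genes were then called (limma adjusted p = 0.00135, 0.000629, 0.0479 and 0.0498), in a fit that called 6.9% of all genes higher. At 1 h the same 6 genes were called with the trend removed, beside 21.7% of all genes higher. Their values there were 1.94 for SSC1, 1.13 for ECM10, 2.31 for MDJ1, 1.98 for HSP60, 1.98 for HSP10 and 2.62 for HSP78. Those of SSC1, HSP60 and HSP10 were thus over 1.5 times the values given above.

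The related genes of the mitochondrion did not all move with the chaperones at 1 h. A list of 9 other genes, of mitochondrial chaperones, J-proteins and import motor parts, also holds that of the cytosolic J-protein Djp1. Of these 9, 1 rose and 4 fell, with a median of -0.41, beside 17.1% of all genes higher and 22.6% lower. As deposited, 2 of the 9 were called, both lower, in a fit that called 23.6% of all genes lower, so that count was near the share over all genes. PAM18 (-0.44 ± 0.14) and PAM16 (-0.41 ± 0.15), genes of the import motor in which Ssc1 acts, fell (limma adjusted p = 0.0215 and 0.046). So did MCX1, a ClpX-type ATPase of the matrix (-0.62 ± 0.17), and the cytosolic J-protein gene DJP1 (-0.57 ± 0.18), while XDJ1 rose by 0.52 ± 0.13. TIM44, which anchors Ssc1 at the channel (-0.40 ± 0.18), and JAC1, the J-protein of Ssq1 (-0.46 ± 0.21), were not called.

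Genes of the outer membrane import channel moved in 1 direction where they were called. Of 11 measured outer membrane import genes, 5 fell and none rose, among them the receptor gene TOM20 (-1.76 ± 0.40), TOM7 (-0.85 ± 0.15) and the pore gene TOM40 (-0.83 ± 0.18). Of 13 measured genes of inner membrane import, 3 fell, TIM23 (-0.94 ± 0.19), TIM50 (-0.73 ± 0.19) and TIM21 (-0.64 ± 0.22). A pair of that list rose, MIA40 (1.35 ± 0.19) and PAM17, a subunit of the import motor, by 2.66 ± 0.28 or 6.3-fold (limma adjusted p = 2.39e-06). Both counts in the inner membrane list were near the shares over all genes, 22.6% lower and 17.1% higher. PAM17 rose more than any of the 9 chaperone genes at 1 h in the fitted values, and that difference was not tested. Medians were -0.43 for the outer and -0.04 for the inner membrane list, against 0.02 for all genes.

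Of 16 genes of mitochondrial proteases, processing peptidases and prohibitins, 8 rose at 1 h and none fell, with a median of 0.43. Of all genes 17.1% were higher at 1 h and 22.6% lower. The prohibitin gene PHB2 rose by 1.15 ± 0.15, MAS1, a subunit of the processing peptidase that removes import signals, by 1.14 ± 0.15, and PIM1, the Lon protease of the matrix, by 0.95 ± 0.21. As deposited, none of the 16 was called, beside 2.89% of all genes higher. Of 15 measured genes of iron-sulfur cluster assembly, 5 rose and 2 fell, and the falls were fewer than the 22.6% over all genes. IBA57 (1.57 ± 0.21), NFU1 (1.35 ± 0.27) and the frataxin gene YFH1 (1.30 ± 0.18) rose, and ISU1, the scaffold on which Ssq1 acts, fell (-1.17 ± 0.23, limma adjusted p = 0.000804), as did YAH1 (-0.60 ± 0.18). As deposited, 2 of these 15 were called, both lower, beside 23.6% of all genes. Heat shock chaperones of the cytosol had a median of 2.07, with 17 of 18 higher, from HSP26 (6.18), HSP42 (5.25) and SSA4 (5.03) to AHA1 (1.31). HSF1, the gene of the heat shock transcription factor, stood at 0.23 ± 0.18 and was not called. At the other times, 6 of the 18 cytosolic genes were higher at 15 min, 8 at 30 min and 3 at 18 h, and none was lower. The shares of all genes higher there were 0.668%, 3.27% and 5.33%. With arrays scaled to equal spread, 1 was called at 15 min and 1 at 30 min, beside 0.0722% and 0.957% of all genes higher. PAM17 was the 1 inner membrane import gene called at 18 h, and it was higher there as at 1 h.

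**Figure D4:**
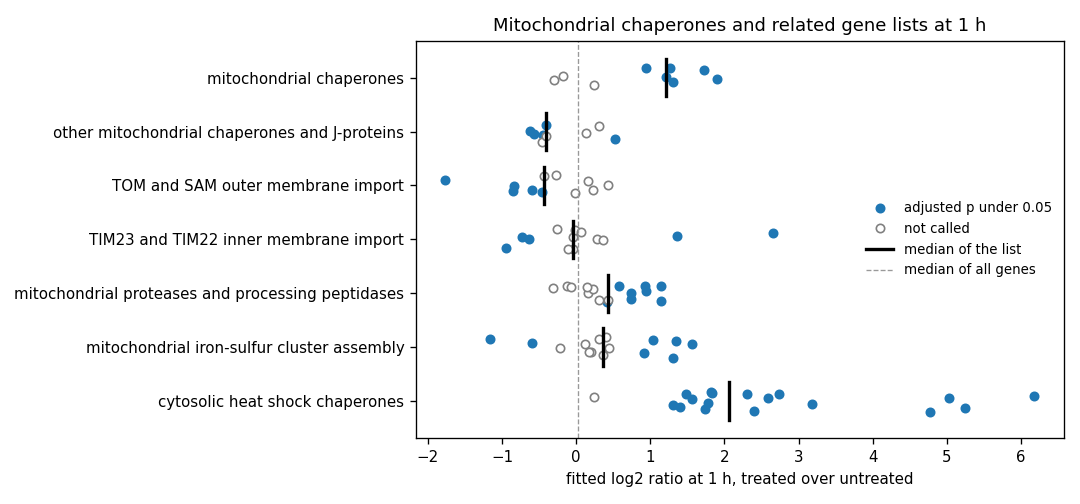
Fitted log2 ratios of treated over untreated cells at 1 h (horizontal axis) for the 9 mitochondrial chaperone genes, in the top row, and 6 lists of related genes. Each point is a gene, filled blue where adjusted p is under 0.05, with black bars at list medians and a dashed line at the median of all genes. The chaperones have a median of 1.21 and the cytosolic heat shock list 2.07, with the 2 import lists at -0.43 and -0.04.

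Across the 15 arrays, the patterns of the 9 genes were of several kinds. Pairs of members correlated with Pearson's r from -0.74 (ECM10 and ZIM17) to 0.86 (HSP60 and MGE1), as a description over arrays that share their spot layout and differ in time and dye. SSC1 and HSP60 correlated with r = 0.81, HSP60 and HSP10 with 0.75, ECM10 and SSQ1 with 0.80, and SSQ1 and MGE1 with 0.82. HSP78 had r between -0.37 and 0.34 with every other member.

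Of genes outside the list, those most like HSP60 in pattern were STI1, a co-chaperone of Hsp70 and Hsp90 (r = 0.92), GSH2, of glutathione synthesis (0.89), and GLR1, the glutathione reductase (0.89). HSP10 was most like UBC4, a ubiquitin-conjugating enzyme (0.92), FES1, an exchange factor of cytosolic Hsp70 (0.91), and MRI1 (0.87). SSC1 was most like RNR4 (0.90), BTN2 (0.90) and PDR17 (0.90). HSP78 was most like YKR070W (0.83), AFG1 (0.83) and SIS2 (0.82), and MDJ1 most like CIN2 (0.84), DDI3 (0.83) and BLM10 (0.79). ECM10 was most like OSW7 (0.87), CHO2 (0.86) and YLL054C (0.85). MGE1 was most like BFR1 (0.98), and CAB1 and TUB2 came next for both MGE1 (0.94 and 0.93) and SSQ1 (0.92 and 0.91), behind TOM71 for SSQ1 (0.94). ZIM17 was most like SEC10 (0.90), GLG2 (0.89) and POL2 (0.88). The likeness is of pattern over the 15 arrays and not of level. At 1 h RNR4 (2.42), BTN2 (4.99), STI1 (1.74), GLR1 (1.35), UBC4 (1.26) and FES1 (2.74) were called higher, beside 17.1% of all genes. PDR17 (-0.01), GSH2 (0.44), MRI1 (0.01), OSW7 (0.33), CHO2 (0.24) and YLL054C (0.49) were not called. Those named for HSP78 and MDJ1 were all called higher, and those for SSQ1, MGE1 and ZIM17 were not called.

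The genes lie apart from each other in the genome, with none of the 9 next to another in the RefSeq table of assembly R64. Of 18 adjacent entries, 16 were measured, and 6 of these rose at 1 h and none fell, beside 17.1% of all genes higher. On either side of SSC1, VPS55 stood at 0.81 and TAH11 at 1.03, and next to HSP60, LCB5 stood at 1.07 and GSY2 at 0.54, all called (limma adjusted p = 0.000735, 0.000161, 4.73e-05 and 0.0191). YOR019W, next to HSP10, stood at 1.34 and ARC18, next to SSQ1, at 0.62, both called (limma adjusted p = 0.00467 and 0.0201). These neighbours were named after their values were seen, and double-stranded probes would not tell strands apart where such genes overlap.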

How the data were processed

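RNA of treated and untreated yeast shared each 2-colour spotted slide, per the labels. For every spot the authors deposited a single log ratio. The log2 base was inferred here: on 10 of 15 arrays all 13056 deposited values were log2 ratios of whole numbers up to 65535 (relative tolerance 5e-14). The others were 1 h replicates 1, 3 and 6, 15 min replicate 1 and 30 min replicate 1. Background correction and normalisation: not given in the sources used here. The direction, treated over untreated, is likely, from the titles and dyes. Gene names came from the platform annotation, and 0 symbols needed updating. Spots of a gene were averaged and each array was centred on its gene median. Signal over background is unknown, and precision is limited by how few arrays each time has.

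The fit used limma 3.58.1 (R 4.3.3), took in every array and estimated each time's mean plus a gene-wise dye effect (10 residual and 5.41 prior degrees of freedom), tested on simulated data. Brightness was recovered from the whole-number ratios of 10 arrays. Pairs of members were compared with exact sign-flip permutation tests (scipy 1.17.1). All members, the extreme called genes of each list at 1 h and the 3 genes most similar to each member were named. PAM16, TIM44, JAC1 and HSF1 were added after their values were seen. Members, lists and pairs were chosen with earlier results of these data known. Alternatives changed centring, dye term, scaling, brightness, spots, blocking and the arrays used.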

Additional observations from a re-analysis of the deposited data

Results flagged for a closer look

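HSP10 lay above the median gene on every array at 15 min, 30 min and 1 h and below it on every array at 18 h. This came from looking through all members and pairs of times, and how many of all genes did the same was not counted. With the dye term, the fitted value of HSP10 at 18 h was 0.05 ± 0.27. The means differed by -1.88 between 18 h and 15 min, by -1.47 between 18 h and 30 min and by -1.74 between 18 h and 1 h (later minus earlier, means of arrays without a dye term). The last difference was tested, with a limma adjusted p of 0.0608 (with the dye term) and 0.00592 (without it), and the differences of 18 h from 15 min and 30 min were not tested. No array stood apart from the other 5 at 1 h for any member by Dixon's criterion.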

How the results depend on the processing

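The cause of the changes given here was not tested. At 1 h the 6 calls were kept whichever 1 h array was left out (6 to 6, beside 13.1% to 15.9% of all genes higher), and all 6 genes stayed higher in every setting. As deposited, without centring, 2 were called (not ECM10, HSP10, HSP60 or SSC1), beside 2.89% of all genes higher. With Cy5 arrays alone HSP60 was lost (0.95, limma adjusted p = 0.0683), beside 7.62% of all genes higher. Calls, leaving out 1 array at a time, numbered 1 to 2 at 15 min, 0 to 1 at 30 min (0 without 30 min replicate 3) and 0 to 1 at 18 h. All genes called higher in these fits were 0.235% to 0.812%, 0.596% to 3.66% and 2.65% to 5.25%. In 18 h minus 1 h there were 0 to 1 (1 without 18 h replicate 2, SSC1 at -2.01, where 26 of 5539 genes were lower). The single calls at 15 min, 30 min and 18 h became 0 with arrays scaled to equal spread, beside 0.0722%, 0.957% and 2.73% of all genes higher. They became 0 at 15 min and 30 min with only the arrays compared (0.271% of all genes higher at each) and 0 at 30 min as deposited (0.614%). Without 15 min replicate 1 and 30 min replicate 1, a choice made after seeing the data, there were 2 at 15 min, 2 at 30 min and 1 in 18 h minus 1 h. Both arrays lacked whole-number ratios at nearly all spots, as did 1 h replicates 1, 3 and 6, which stayed in. That fit called 1.17% of all genes higher at 15 min and 5.11% at 30 min. In 18 h minus 1 h it called 2.74% higher and 42 of 5539 lower. With brightness removed there were 2 at 15 min, 4 at 30 min and 2 at 18 h, beside 1.03%, 6.9% and 9.14% of all genes higher. With the dye term also dropped, likewise chosen later, there were 2, 5 and 3, beside 2.4%, 9.23% and 13.1% higher. Genes lower at 18 h in these fits numbered 325 and 627 of 5539. The latter fit gave 4 in 18 h minus 1 h, beside 5.81% of all genes higher and 247 of 5539 lower. Without the dye term there were 2 at 18 h (2 with Cy5 arrays alone) and 2 in 18 h minus 1 h. Of all genes 7.94% were then higher and 8.36% lower at 18 h, and with Cy5 arrays alone 6.84% higher and 347 of 5539 lower. In 18 h minus 1 h without the dye term, 2.96% were higher and 2.06% lower. In 18 h minus 1 h there was 1 with the arrays of those times alone (2.15% of all genes higher, 35 of 5539 lower). There was also 1 with the second spot (1.03% higher, 22 lower).

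Whether replicate numbers 1 to 3 pair the arrays could not be settled from the values. Deviations of the 18 same-numbered pairs correlated from -0.55 to 0.64, 6 of them over 0.1, and those of 36 other pairs from -0.75 to 0.63. Of 12 arrays, 5 correlated best with their own number. With the replicate block over those arrays, 1 gene was called at 1 h (HSP10) and 0 at 15 min, 0 at 30 min and 0 at 18 h. Of all genes, 4.46% were higher at 1 h in that fit, 0% at 15 min, 0.921% at 30 min and 1.86% at 18 h.

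Directions turned only for values that had not been called. As deposited, 18 h values were 0.73 (SSC1), 0.77 (SSQ1) and 0.82 (ZIM17), 18 h minus 1 h was 0.28 for HSP10 and 0.067 for SSC1, and SSQ1 was -0.31 at 1 h. With brightness removed, SSQ1 was -0.019 at 1 h and -0.23 at 30 min and SSC1 0.20 at 18 h, and with the dye term also dropped SSQ1 was -0.019 at 1 h, -0.031 at 15 min and -0.40 at 30 min and SSC1 0.34 at 18 h. Without the dye term, with Cy5 arrays alone and with each time's own arrays alone, HSP10 was -0.43 at 18 h and MGE1 -0.0415 at 15 min. Without 15 min replicate 1 and 30 min replicate 1, ECM10 (-0.26) and SSQ1 (-0.22) at 30 min and MDJ1 (-0.0499), MGE1 (-0.22) and SSQ1 (-0.20) at 15 min turned. Leaving out replicate 1 of that time alone gave the same values. With the replicate block, ECM10 was -0.015 at 18 h and -0.18 at 30 min, SSQ1 -0.030 at 15 min and -0.0878 at 30 min, and ZIM17 0.054 at 18 h. By the first spot SSC1 was 0.11 at 18 h, and by the second ECM10 was -0.0456 and HSP10 -0.0530 there. Leaving out 1 array at a time, 15 min values ran from -0.0499 to 1.60 for MDJ1, -0.22 to 0.75 for MGE1 and -0.20 to 0.67 for SSQ1 (each lowest without 15 min replicate 1), and from -0.24 to 0.61 for ZIM17 (lowest without 15 min replicate 2). Those at 30 min ran from -0.26 to 0.28 for ECM10 and -0.22 to 0.49 for SSQ1 (lowest without 30 min replicate 1). Those at 18 h ran from -0.0405 to 0.14 for HSP10 (lowest without 1 h replicate 3, and -0.0171 without 1 h replicate 2), -0.11 to 1.03 for HSP60 (lowest without 18 h replicate 3) and -0.80 to 0.27 for SSC1 (highest without 18 h replicate 1). HSP10 minus HSP60 at 1 h ran from -0.12 without 1 h replicate 3 to 0.0881 without 1 h replicate 2. Of the 9 pair differences at 1 h, 6 lost their call by the first spots. Among them HSP78 minus HSP60 changed most (0.41, exact sign-flip permutation test, adjusted p = 0.281). The others kept nearly the same values and moved only to an adjusted p of 0.0562 (same test), because fewer pairs reached the smallest p. With brightness removed, HSP78 minus HSP60 lost it and ECM10 minus SSC1 gained it, and by the second spots HSP78 minus SSC1 gained it. Differences between times are given by value for HSP10 and SSC1 alone.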
